A study of Mus musculus with 16 samples.

Results

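Interferon-stimulated genes were followed in the ventricles of *Lrrc10*-/- and wild type (WT) neonatal mice. A list of 41 such genes was taken by symbol and matched to the gene identifiers of the count table, which holds 51912 genes. The list was chosen with earlier results of these data known, so shares of members set beside all genes are descriptive only. All 41 were found, and all 41 were among the 20159 genes with enough counts to be tested (10 or more counts, summed over libraries, in every group). Total RNA was sequenced after ribosomal RNA depletion from whole ventricles, above and below the ligature, of C57BL/6J WT mice and of *Lrrc10*-/- mice (KO), which lack *Lrrc10* in the whole body. The KO mice were made on a C57BL/6 background, while the WT mice came from a supplier. Genotype therefore cannot be told apart from other differences between the mouse lines. Mice had surgery on postnatal day 1 and ventricles were taken 7 days later. Myocardial infarction (MI) was made by ligating the left anterior descending artery, and in sham surgery (SH) the chest wall was dissected and closed with the heart left covered and the artery untied. The sham groups (WT SH and KO SH) and the infarcted groups (WT MI and KO MI) have 4 libraries each, and those of KO MI carry the replicate numbers 1, 2, 3 and 7. All mice of all groups had thoracic surgery, so no group shows an unoperated heart. Each value is from bulk tissue, where fewer cells of a type and less RNA per cell cannot be told apart.

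Interferons are cytokines released when cells sense viral or misplaced nucleic acid. Type I interferons signal through IFNAR1, IFNAR2 and the kinases JAK1 and TYK2 to the complex ISGF3, which contains STAT2 and IRF9 and binds the interferon-stimulated response element (ISRE) of its target genes. Interferon gamma acts mainly through another DNA element, the gamma-activated site (GAS). The targets include sensors and effectors that block viral RNA and protein synthesis, immunity-related GTPases, and antigen processing genes, and DNA from dying cells of the infarcted adult heart is known to switch on part of this programme through cGAS and STING in infiltrating myeloid cells.

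The DNA motifs bound by these factors were searched in the 250 bases before the start of the annotated canonical transcript of each gene (GRCm39). The ISRE core was searched on either strand as GAAA, any 2 bases and GAAA, and the GAS core as TTC, any 3 bases and GAA, a motif that reads the same on both strands in its fixed letters, and overlapping matches were allowed. An ISRE core lay in 17 of the 41 member windows (41.5%) and in 448 of 14590 windows of the same length over tested protein-coding genes (3.07%). A GAS core lay in 9 member windows (22.0%) and in 977 of all windows (6.70%), and 4 member windows held both (9.76%, against 0.322% of all windows). Below are 160 bases before the start for 7 members on which the results turn, *Ddx60*, *Ifit3*, *Ifit3b*, *Oas2*, *Oas3*, *Zbp1* and *Rsad2*, and for *Irgm1* as an example of the GTPases. They are written 5′ to 3′ on the strand of the gene, and capitals mark the ISRE and GAS matches.
Ddx60, chr8:62380963-62381122, plus strand: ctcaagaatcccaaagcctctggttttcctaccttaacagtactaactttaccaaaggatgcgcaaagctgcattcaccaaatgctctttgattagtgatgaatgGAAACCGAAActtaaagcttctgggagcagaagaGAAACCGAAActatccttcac
Ifit3, chr19:34560739-34560898, plus strand: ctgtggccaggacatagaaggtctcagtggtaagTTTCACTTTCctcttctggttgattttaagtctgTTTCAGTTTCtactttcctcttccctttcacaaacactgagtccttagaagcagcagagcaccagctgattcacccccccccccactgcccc
Ifit3b, chr19:34585168-34585327, plus strand: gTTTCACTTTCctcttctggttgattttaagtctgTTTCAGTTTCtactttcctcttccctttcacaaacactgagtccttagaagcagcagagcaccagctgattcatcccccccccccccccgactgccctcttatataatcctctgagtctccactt
Oas2, chr5:120887934-120888093, minus strand: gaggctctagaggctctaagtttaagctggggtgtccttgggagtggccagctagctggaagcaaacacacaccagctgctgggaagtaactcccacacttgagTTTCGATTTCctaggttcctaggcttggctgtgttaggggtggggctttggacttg
Oas3, chr5:120915730-120915889, minus strand: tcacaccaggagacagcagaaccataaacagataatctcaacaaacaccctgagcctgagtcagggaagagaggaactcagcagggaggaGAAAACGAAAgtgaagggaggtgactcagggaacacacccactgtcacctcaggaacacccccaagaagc
Zbp1, chr2:173060725-173060884, minus strand: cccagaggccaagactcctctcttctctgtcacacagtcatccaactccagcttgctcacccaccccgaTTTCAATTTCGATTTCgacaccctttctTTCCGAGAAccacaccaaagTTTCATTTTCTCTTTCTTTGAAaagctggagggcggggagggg
Rsad2, chr12:26506452-26506611, minus strand: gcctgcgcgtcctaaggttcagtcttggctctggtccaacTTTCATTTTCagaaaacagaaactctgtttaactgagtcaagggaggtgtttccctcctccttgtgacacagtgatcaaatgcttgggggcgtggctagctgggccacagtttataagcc
Irgm1, chr11:48762248-48762407, minus strand: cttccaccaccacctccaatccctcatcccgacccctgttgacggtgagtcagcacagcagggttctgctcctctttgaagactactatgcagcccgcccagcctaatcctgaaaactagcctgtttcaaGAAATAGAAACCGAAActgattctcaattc
The *Ddx60* window held 2 ISRE matches and the nearest ended 12 bases before the start. The windows of *Ifit3* and *Ifit3b* held the same pair of ISRE matches. In *Zbp1*, 4 ISRE and 2 GAS matches were found, and 1 ISRE match overlapped a GAS match. *Xaf1*, *Psmb8* and *Irf7* had neither motif in their windows, and *Ifit2* had 1 GAS match, which says only that these letters do not stand in the window searched.

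In WT SH ventricles the members spanned a wide range of levels, given as CPM per kilobase of exon (n = 4), where CPM is the count relative to library size as edgeR scales it. *Eif2ak2*, which encodes the kinase PKR, was at 8.49 ± 0.446 CPM per kb (SD). It was followed by *Parp14*, an ADP-ribosyltransferase, at 4.27 ± 0.300 and by *Ifit2*, a member of the family that binds foreign RNA ends, at 4.03 ± 0.510. The last pair differed by less than the SD of *Ifit2*. At the other end stood *Oas2* at 0.0862 ± 0.0184, *Oas1a* at 0.0422 ± 0.0204, *Zbp1* at 0.0221 ± 0.0139 and *Oas3* at 0.0128 ± 0.00725 CPM per kb. Of these, *Oas1a* and *Zbp1*, and *Zbp1* and *Oas3*, differed by less than the SD of the higher gene. *Ifit1* and *Isg15*, among the genes most strongly induced by interferon in other settings, were at 0.351 ± 0.0621 and 0.331 ± 0.119 CPM per kb, which also differed by less than their SD. The levels below are CPM per gene on the TMM-scaled library, which compare libraries and not genes.

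The libraries had 33783874 to 57470159 counts (median 45092798), and 3 counts, taken as the floor, correspond to 0.0577 to 0.0858 CPM. *Lrrc10* had 0 counts in all 8 KO libraries and 1075 to 1850 counts in the WT libraries. The labels call the groups sex-balanced, yet *Xist* was above 100 CPM in 0 of 4 WT SH libraries and in 2 of 4 in each other group. Y-linked genes summed to 159.7 to 165.2 CPM in the WT SH libraries. In the libraries with *Xist* above 100 CPM that sum was at most 1.334 CPM. By these genes WT SH holds males only, so comparisons with WT SH differ in sex make-up as well as in genotype or surgery. In KO MI, replicates 2 and 7 stood apart in fetal skeletal muscle genes, with *Myh8* at 42.3 and 58.5 CPM against 0.363 to 5.10 CPM in the other 14 libraries, and results that use KO MI are also given from replicates 1 and 3 alone, an alternative added after the data were seen. The cardiomyocyte marker list summed to 29640 to 43340 CPM in every library.

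**Figure D1:**
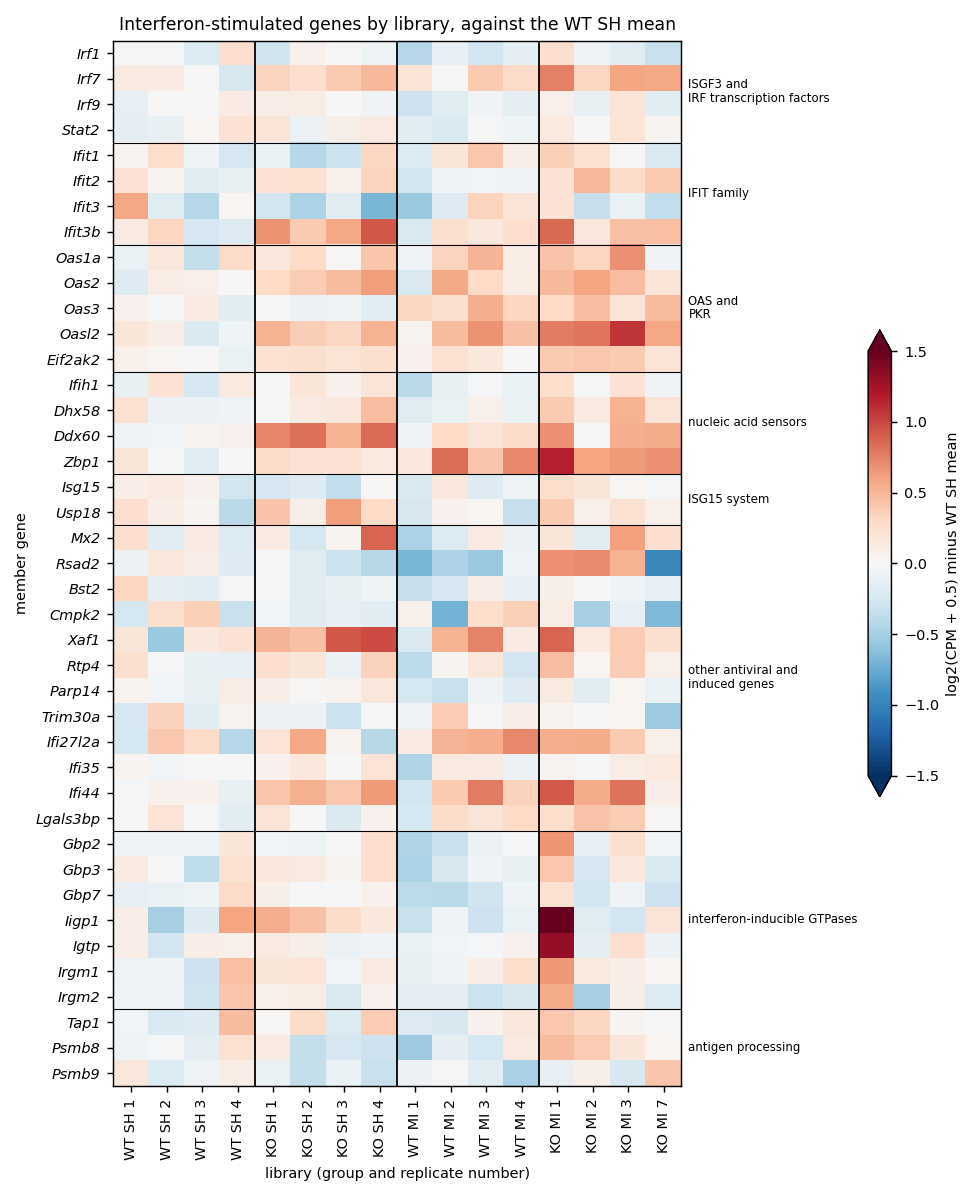
Log2(CPM + 0.5) of each of the 41 members (rows, ordered by role) in each of the 16 libraries (columns), minus the mean of the 4 WT SH libraries; red is higher and blue is lower. *Ddx60*, *Oasl2* and *Xaf1* are red across the KO SH libraries, and KO MI replicate 1 is red across the GTPases, where *Iigp1* and *Igtp* stand out.

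After sham surgery, Lrrc10-/- ventricles had more transcript of 4 interferon-stimulated genes than WT ventricles. None was called lower by edgeR or DESeq2 (2.53% of all tested genes by edgeR). At an unadjusted p under 0.05, 10 members were higher and 0 lower, beside 10.5% and 12.3% of all genes. The 4 were *Ddx60*, *Xaf1*, *Oas2* and *Ifit3b*, with log2 fold changes between 0.73 and 1.11. A gene was called here, and throughout, when edgeR's quasi-likelihood test gave a Benjamini-Hochberg adjusted p under 0.1 over all tested genes together with a log2 fold change of 0.5 or more in either direction. The 4 calls are 9.76% of the members, beside 5.01% of all tested genes called in either direction and 2.48% called higher. Of 56 further tested interferon-induced genes outside the list, 0 were called in this comparison. The fold change was above 0 in 29 of 41 members (51.0% of all genes) with a median of 0.11 (0.01 over all genes), and 8 members had every KO SH library above every WT SH library (8.35% of all genes).

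Among the transcription factors, *Irf7*, the factor that amplifies type I interferon production, was at 1.999, 1.98, 1.77 and 1.43 CPM in WT SH and at 2.37, 2.21, 2.504 and 2.702 CPM in KO SH. The groups did not overlap, and the log2 fold change was 0.45 ± 0.148 (SE, edgeR adjusted p = 0.0749), under the fold limit for a call. *Irf9*, the DNA-binding part of ISGF3, was at 12.2, 13.4, 13.3 and 14.5 CPM in WT SH and 14.2, 14.4, 13.3 and 12.8 CPM in KO SH. *Stat2*, its partner, was at 7.90, 7.99, 8.90 and 10.2 CPM in WT SH and 10.03, 8.16, 9.24 and 9.63 CPM in KO SH. Both overlapped between the genotypes (log2 fold changes 0.04 ± 0.0854 and 0.09 ± 0.0920, edgeR adjusted p = 0.832 and 0.631).

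The largest fold change of the 4 was that of *Ifit3b*, a member of the IFIT family of RNA-binding proteins on chromosome 19 (chr19:34585328-34590801, plus strand). It was at 0.519, 0.668, 0.286 and 0.314 CPM in WT SH (10 to 27 counts) and at 0.992, 0.729, 0.897 and 1.29 CPM in KO SH. All KO SH libraries were above all WT SH libraries, with a log2 fold change of 1.11 ± 0.314 (edgeR adjusted p = 0.0389; exact two-sided permutation p = 0.0286, the smallest that 4 against 4 can give). The call was lost without KO SH replicate 4 (edgeR adjusted p = 0.121). Its neighbour *Ifit3* is a close copy: 36.9% of the 75-base windows of the *Ifit3b* transcript also occur in that of *Ifit3*. *Ifit3* was at 1.71, 0.802, 0.601 and 1.02 CPM in WT SH and 0.721, 0.567, 0.814 and 0.420 CPM in KO SH, the opposite direction, with a log2 fold change of -0.72 ± 0.351 (edgeR adjusted p = 0.231). With both summed before the fit, an alternative added after the data were seen, KO SH was at 1.61 ± 0.207 CPM and WT SH at 1.48 ± 0.559 CPM (SD, n = 4), and the call was lost (log2 fold change 0.10 ± 0.284, edgeR adjusted p = 0.872). *Ifit3b* took 23.3% to 45.5% of the sum in WT SH and 52.4% to 75.4% in KO SH. RSEM divides reads that match several genes, so the assignment to *Ifit3b* rather than *Ifit3* is uncertain. *Ifit1*, the family member that binds RNA without a methylated cap, was at 2.69, 3.18, 2.46 and 2.08 CPM in WT SH and 2.37, 1.78, 1.96 and 3.33 CPM in KO SH, and the groups overlapped (log2 fold change -0.14 ± 0.207, edgeR adjusted p = 0.732).

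*Oas2* encodes a 2′-5′-oligoadenylate synthetase, which activates RNase L on double-stranded RNA (chr5:120868398-120887933, minus strand). It was at 0.269, 0.455, 0.429 and 0.387 CPM in WT SH (14 to 17 counts) and 0.586, 0.648, 0.730 and 0.866 CPM in KO SH (24 to 35 counts). The groups did not overlap (log2 fold change 0.89 ± 0.307, edgeR adjusted p = 0.0862), but leaving out any single one of the 8 libraries ended the call, with adjusted p between 0.112 and 0.238, as did fitting without a count filter or with a term for *Xist*. *Oasl2*, a synthetase-like protein, and *Eif2ak2* were also higher in all 4 KO SH libraries, at 5.86 to 6.83 CPM against 3.89 to 5.31 and at 53.4 to 54.7 CPM against 43.0 to 48.7. Their log2 fold changes of 0.46 ± 0.138 and 0.23 ± 0.0597 had edgeR adjusted p = 0.0492 and 0.0265, both under the fold limit (5.11% of all genes were higher at an adjusted p under 0.1 whatever the fold).

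*Ddx60*, a helicase known as a cofactor of RIG-I-like sensing of viral RNA, lies at chr8:62381109-62491278 on the plus strand. It was at 5.06, 5.11, 5.43 and 5.56 CPM in WT SH and 9.11, 9.78, 7.80 and 9.92 CPM in KO SH. The lowest KO SH library was above the highest WT SH library. The log2 fold change was 0.79 ± 0.135 (edgeR adjusted p = 0.00209), and it kept the call under all 10 alternatives and all 8 leave-one-out fits (0.75 to 0.86, largest adjusted p = 0.0103). The KO SH libraries with *Xist* under 100 CPM, replicates 3 and 4, held 7.80 and 9.92 CPM of *Ddx60*, above each WT SH library, all of which had *Xist* under 100 CPM. The other sensors overlapped between the genotypes. *Ifih1*, which encodes the RNA sensor MDA5, had a log2 fold change of 0.11 ± 0.114, and *Dhx58*, which encodes its regulator LGP2, had 0.33 ± 0.237 (edgeR adjusted p = 0.630 and 0.430).

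*Xaf1*, a pro-apoptotic zinc finger gene at chr11:72192397-72204559 on the plus strand, was at 9.44, 5.43, 9.27 and 9.67 CPM in WT SH and 12.0, 11.4, 16.1 and 16.7 CPM in KO SH. The groups did not overlap, with a log2 fold change of 0.73 ± 0.221 (edgeR adjusted p = 0.0507). The call was lost without WT SH replicate 2, KO SH replicate 3 or KO SH replicate 4 (largest adjusted p = 0.147). *Ifi44*, whose product restrains cell growth and viral replication, was at 2.98 to 3.42 CPM in WT SH and 4.44 to 5.32 CPM in KO SH, just outside the call at an edgeR adjusted p of 0.101 (log2 fold change 0.56 ± 0.202). It was called under DESeq2 (adjusted p = 0.0582), and by edgeR without a count filter (0.0852) and with only the 2 sham groups fitted (0.00371). *Usp18*, the protease that removes ISG15 and dampens IFNAR2 signalling, was at 2.44, 2.17, 2.06 and 1.38 CPM in WT SH and 2.84, 2.13, 3.32 and 2.54 CPM in KO SH (log2 fold change 0.43 ± 0.182, edgeR adjusted p = 0.163). *Isg15*, the ubiquitin-like modifier, was at 0.308, 0.321, 0.286 and 0.121 CPM in WT SH and 0.135, 0.162, 0.0834 and 0.262 CPM in KO SH. It rested on 43 and 26 counts in all and did not pass (log2 fold change -0.71 ± 0.418, edgeR adjusted p = 0.333). None of the 7 GTPases (6 of 7 above 0, median log2 fold change 0.04) and none of the 3 antigen processing genes (1 of 3 above 0, median -0.24) was called.

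Markers of other cells also differed between these groups, where 2.48% of all tested genes were called higher and 2.53% lower. Of 15 macrophage markers, 3 were called lower in KO SH (*Fcgr1*, *C1qa* and *C1qb*) and 0 higher, and their sum was 81.5 to 88.4 CPM against 83.8 to 97.7 CPM in WT SH. Of the 7 tested of 10 neutrophil markers, 3 were called higher (*S100a8*, *S100a9* and *Csf3r*), and the sum of the 10 was 3.67 to 4.67 CPM against 1.60 to 2.29 CPM, with *Ly6g* at 0 in all 8 libraries. The part of these cells in the 4 calls was not tested.

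**Figure D2:**
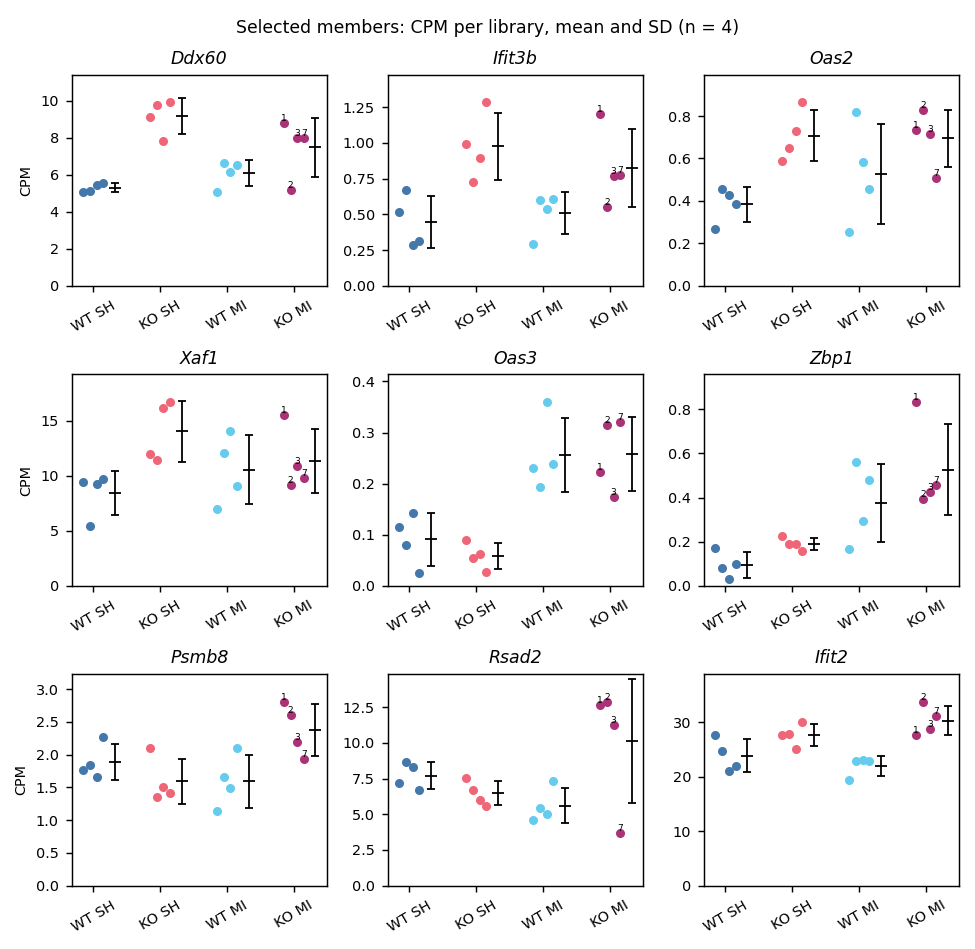
CPM of 9 members in each library (points) by group, with the mean and SD of 4 libraries (bar); the small numbers at the KO MI points are replicate numbers. *Ddx60* in KO SH lies at 7.80 to 9.92 CPM above 5.06 to 5.56 CPM in WT SH, and *Rsad2* in KO MI lies at 11.3 to 12.9 CPM apart from replicate 7 at 3.69 CPM.

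Post-MI, none of the 41 listed interferon-stimulated genes was called between Lrrc10-/- and WT ventricles, although most lay a little higher in KO MI. The log2 fold change was above 0 in 36 of 41 members (87.8%, beside 52.1% of all genes) with a median of 0.27 (0.01 over all genes). edgeR called 0 of 41, beside 1.73% of all tested genes, 0.570% called higher and 1.16% called lower, and DESeq2 called 1 (*Psmb8*). At an unadjusted p under 0.05, 18 members (43.9%) were higher and 0 lower, beside 5.66% and 6.75% of all genes. *Ifit2* and *Eif2ak2* passed the adjusted p of 0.1 without reaching the fold limit (1.03% of all genes were higher at that p whatever the fold), and 4 members had every KO MI library above every WT MI library (*Stat2*, *Ifit2*, *Dhx58* and *Usp18*; 2.74% of all genes). From KO MI replicates 1 and 3 alone, 6 members were called (*Oasl2*, *Rsad2*, *Gbp2*, *Gbp3*, *Iigp1* and *Igtp*). Of these, *Gbp2*, *Gbp3*, *Iigp1* and *Igtp* are GTPases, in which KO MI replicate 1 stood apart (below). The share of all tested genes called in that fit is not given here. Macrophage markers summed to 93.6 to 180 CPM in KO MI and 105 to 138 CPM in WT MI with 0 of 15 called, and 3 of 8 tested skeletal muscle markers were called higher in KO MI.

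*Ifit2* was at 19.3, 22.8, 23.0 and 22.9 CPM in WT MI and 27.6, 33.7, 28.7 and 31.1 CPM in KO MI. Every KO MI library was higher, with a log2 fold change of 0.46 ± 0.0901 (edgeR adjusted p = 0.0111). It was singled out, like *Eif2ak2*, *Rsad2* and the GTPases below, after its values were seen. *Eif2ak2* was at 48.3, 54.2, 51.5 and 46.3 CPM in WT MI and 60.8, 61.0, 60.6 and 53.0 CPM in KO MI, where replicate 7 lay within the WT MI range (log2 fold change 0.23 ± 0.0594, edgeR adjusted p = 0.0528). *Ifit3b* was at 0.294, 0.603, 0.540 and 0.608 CPM in WT MI and 1.2, 0.551, 0.771 and 0.776 CPM in KO MI, where replicate 2 lay in the WT MI range (log2 fold change 0.69 ± 0.307, edgeR adjusted p = 0.363), and *Ifit3* had a log2 fold change of -0.17 ± 0.339 (edgeR adjusted p = 0.906). *Ifit1* was at 2.17, 2.99, 3.58 and 2.76 CPM in WT MI and 3.46, 3.11, 2.62 and 2.14 CPM in KO MI, a log2 fold change of -0.01 ± 0.201 (edgeR adjusted p = 0.990).

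*Stat2* was at 7.65, 7.36, 8.59 and 8.28 CPM in WT MI and 9.68, 8.72, 10.1 and 8.94 CPM in KO MI (log2 fold change 0.23 ± 0.0914, edgeR adjusted p = 0.270). *Irf9* was at 10.6, 11.6, 12.8 and 12.0 CPM in WT MI and 14.0, 12.3, 15.3 and 11.9 CPM in KO MI, and these overlapped (0.18 ± 0.0851, edgeR adjusted p = 0.391). *Irf7* was at 2.12, 1.81, 2.496 and 2.28 CPM in WT MI and 3.36, 2.32, 2.93 and 2.92 CPM in KO MI, where replicate 2 lay inside the WT MI range (0.40 ± 0.143, edgeR adjusted p = 0.199). *Usp18* was at 1.60, 2.09, 2.02 and 1.46 CPM in WT MI and 2.77, 2.11, 2.41 and 2.11 CPM in KO MI, a narrow separation (0.39 ± 0.182, edgeR adjusted p = 0.389). *Isg15* was at 0.147, 0.344, 0.157 and 0.217 CPM in WT MI and 0.407, 0.354, 0.270 and 0.241 CPM in KO MI, with 40 and 61 counts in all (0.56 ± 0.381, edgeR adjusted p = 0.628).

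*Rsad2* encodes viperin, a radical SAM enzyme that makes a chain-terminating nucleotide, and lies at chr12:26492745-26506451 on the minus strand. It was at 4.58, 5.42, 5.04 and 7.34 CPM in WT MI and 12.6, 12.9, 11.3 and 3.69 CPM in KO MI. KO MI replicates 1, 2 and 3 were above every WT MI library and replicate 7 was below them all. With all libraries the log2 fold change was 0.86 ± 0.257 (edgeR adjusted p = 0.107), and without KO MI replicate 7 it was 1.13 (edgeR adjusted p = 0.000162). With all 16 libraries it was also called without a count filter (0.86, edgeR adjusted p = 0.0422) and with a term for *Xist* (0.84, 0.0660). In all, *Rsad2* was called in 1 of 8 leave-one-out fits and in 4 of 11 alternatives. The adjusted p reached 0.284 among the leave-one-out fits and 0.359 among the alternatives, and DESeq2 did not call it. *Cmpk2*, the nucleotide kinase gene beside it on the opposite strand (chr12:26519203-26529836), was at 3.70, 1.94, 4.30 and 4.61 CPM in WT MI and 3.80, 2.32, 3.18 and 2.03 CPM in KO MI, with a log2 fold change of -0.35 ± 0.2399 (edgeR adjusted p = 0.627).

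All 7 interferon-inducible GTPases, which act on the membranes around intracellular pathogens, lay higher on average in KO MI than in WT MI (median log2 fold change 0.27), and 0 of 7 were called. KO MI replicate 1 stood apart in them. KO MI replicate 1 was the highest of its group in 7 of 7 GTPases and in 26 of 41 members. *Iigp1*, the gene of the GTPase Irga6 on chromosome 18, was at 35.0 CPM there, at 7.76, 7.21 and 10.2 CPM in the other KO MI libraries, against 6.92 to 8.52 CPM in WT MI. *Igtp* was at 8.52 CPM in replicate 1 and at 2.76, 3.80 and 2.89 CPM in the others, against 2.86 to 3.28 CPM in WT MI. *Irgm1* was at 13.2 CPM in replicate 1 and at 8.43 to 9.17 CPM in the others. The log2 fold changes of *Iigp1* and *Igtp*, 0.97 ± 0.380 and 0.57 ± 0.260, had edgeR adjusted p = 0.269 and 0.382.

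The same library held the highest *Cxcl9* of all 16, a chemokine induced by interferon gamma (1.44 CPM, against 0.0646 to 0.562 CPM elsewhere). *Ifng* itself had 0 counts in every library. Its macrophage marker sum of 93.6 CPM was the lowest of the KO MI group. In WT SH, replicate 4 was the highest in 6 of 7 GTPases, with their sum at 82.6 CPM against 56.5 to 63.85 CPM, and it also held the highest level of the thymocyte gene *Rag1* of all libraries (1.81 CPM, against 0 to 0.501 CPM). The sum of the 8 thymocyte markers, 7.01 CPM in that library, was higher in some others, up to 8.07 CPM in KO SH replicate 1. At the other end, WT MI replicate 1 was the lowest of its group in 30 of 41 members. The GTPases also moved together within groups. Over deviations from the group means in 16 libraries, the 21 GTPase pairs had a median Spearman rho of 0.57. Medians within the other role groups ran from -0.126 (antigen processing) to 0.403 (nucleic acid sensors), with 0.31 over the 66 pairs of the other antiviral genes. Between GTPases and sensors the median was 0.428, and none over all genes is given here. All these points share libraries and depth. *Igtp* and *Irgm2* overlap on the same strand of chromosome 11, so their reads are partly uncertain.

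**Figure D3:**
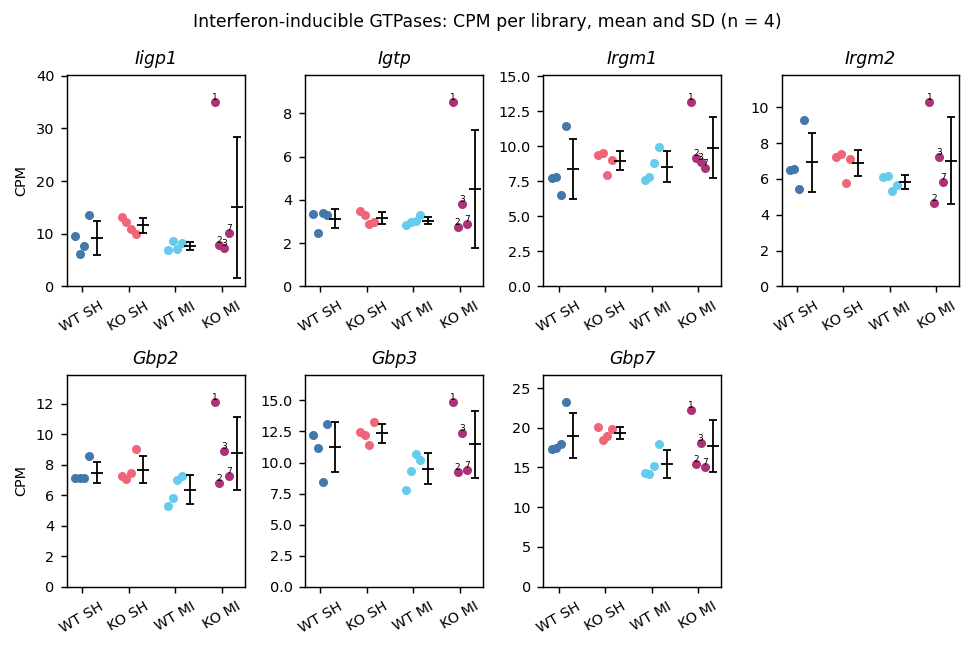
CPM of the 7 interferon-inducible GTPases in each library (points) by group, with the mean and SD of 4 libraries (bar); the numbers at the KO MI points are replicate numbers. KO MI replicate 1 is the highest point of its group in every panel, at 35.0 CPM for *Iigp1* and 8.52 CPM for *Igtp*.

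In WT ventricles, 2 of the 41 listed interferon-stimulated genes were called higher after MI than after sham, *Zbp1* and *Oas3*, both from very low levels. Neither was called with a term for *Xist* in the fit. The 2 calls are 4.88% of the members, beside 2.78% of all tested genes called and 2.13% called higher. The fold change was above 0 in 17 of 41 members (49.1% of all genes) with a median of -0.12, and 0 were called lower by edgeR (0.645% of all genes) or DESeq2. At an unadjusted p under 0.05, 3 members were higher and 2 lower (*Parp14* and *Gbp7*), beside 8.55% and 7.94% of all genes. *Oas3* alone had every WT MI library above every WT SH library (6.16% of all genes). *Oasl2* also passed the adjusted p of 0.1, below the fold limit, where 3.11% of all genes were higher. Over the same libraries 7 of 7 tested neutrophil markers were called higher, and 2 of 15 macrophage markers were called (*Lyz2* and *Ccr2*).

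*Zbp1*, the sensor of left-handed Z-form nucleic acid that can start necroptosis (chr2:173033815-173060724, minus strand), was at 0.173, 0.0802, 0.0286 and 0.0967 CPM in WT SH (1 to 9 counts) and 0.168, 0.560, 0.292 and 0.478 CPM in WT MI (8 to 26 counts). WT MI replicate 1 lay inside the WT SH range. The log2 fold change was 1.87 ± 0.463 (edgeR adjusted p = 0.0368), and on summed counts, 69 against 17, the ratio was 3.65 (95% exact interval 2.12 to 6.61, counting error only). The call was lost without WT MI replicate 2 and with a term for *Xist* in the fit (adjusted p = 0.129 and 0.117). *Oas3*, the largest oligoadenylate synthetase (chr5:120891163-120915729, minus strand), was at 0.115, 0.0802, 0.143 and 0.0242 CPM in WT SH (1 to 6 counts) and 0.231, 0.194, 0.360 and 0.239 CPM in WT MI (9 to 16 counts). The groups did not overlap (log2 fold change 1.47 ± 0.431, edgeR adjusted p = 0.0752; count ratio 2.81, interval 1.55 to 5.42). In 7 of 8 leave-one-out fits the adjusted p was above 0.1, at most 0.190, and the call was also lost under DESeq2, without a count filter, with only WT SH and WT MI in the fit, and with a term for *Xist*.

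In Lrrc10-/- ventricles, MI against sham raised 3 of the 41 listed genes, *Oas3*, *Zbp1* and *Psmb8*. The 3 calls are 7.32% of the members, beside 7.42% of all tested genes called and 5.31% called higher, a share near the background. The fold change was above 0 in 28 of 41 members (48.1% of all genes) with a median of 0.12 (-0.01 over all genes). At an unadjusted p under 0.05, 7 members were higher and 1 lower (*Ddx60*), beside 14.3% and 11.9% of all genes, and 0 were called lower by edgeR (2.11% of all genes) or DESeq2. *Oas3*, *Oasl2* and *Zbp1* had every KO MI library above every KO SH library (7.68% of all genes), and 10.2% of all genes were higher at an adjusted p under 0.1 whatever the fold. *Oas3* was at 0.0902, 0.0540, 0.0626 and 0.0262 CPM in KO SH, where 3 of 4 libraries were at or under the floor of 3 counts, and at 0.224, 0.315, 0.174 and 0.321 CPM in KO MI. All KO MI libraries were higher (log2 fold change 2.06 ± 0.460, edgeR adjusted p = 0.00915; count ratio 4.25, interval 2.12 to 9.42). *Zbp1* was at 0.225, 0.189, 0.188 and 0.157 CPM in KO SH and 0.834, 0.394, 0.424 and 0.455 CPM in KO MI, again without overlap (1.45 ± 0.409, edgeR adjusted p = 0.0290). Both calls held in all 8 leave-one-out fits and under all 11 alternatives.

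*Psmb8*, the immunoproteasome subunit that trims peptides for MHC class I (chr17:34416690-34420428, plus strand), was at 2.10, 1.35, 1.502 and 1.42 CPM in KO SH and 2.81, 2.60, 2.20 and 1.93 CPM in KO MI. KO SH replicate 1 lay above KO MI replicate 7, and the log2 fold change was 0.58 ± 0.191 (edgeR adjusted p = 0.0581). Without each of 5 libraries in turn (KO SH replicates 2, 3 and 4, KO MI replicates 1 and 2) it was not called, at adjusted p up to 0.152. *Psmb9*, another immunoproteasome subunit, and *Tap1*, the peptide transporter, had log2 fold changes of 0.47 ± 0.280 and 0.08 ± 0.174 (edgeR adjusted p = 0.305 and 0.822). *Tap1* and *Psmb9* overlap at their starts on opposite strands of a stranded library. From KO MI replicates 1 and 3 alone, 6 members were called, *Oasl2*, *Rsad2* and *Igtp* besides *Oas3*, *Zbp1* and *Psmb8*. The share of all tested genes called in that fit is not given here. With all KO SH and KO MI libraries, 10 of 15 macrophage markers and 5 of 7 tested neutrophil markers were called higher. So were 6 of 8 tested skeletal muscle markers (median log2 fold change 3.37), beside 5.31% of all tested genes. The macrophage sum was 81.5 to 88.4 CPM in KO SH and 93.6 to 180 CPM in KO MI. The part of these cells in the 3 calls was not tested. The WT and KO comparisons each use their own sham group, and the comparisons of genotype and of surgery share libraries, so their values stand side by side only.

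**Figure D4:**
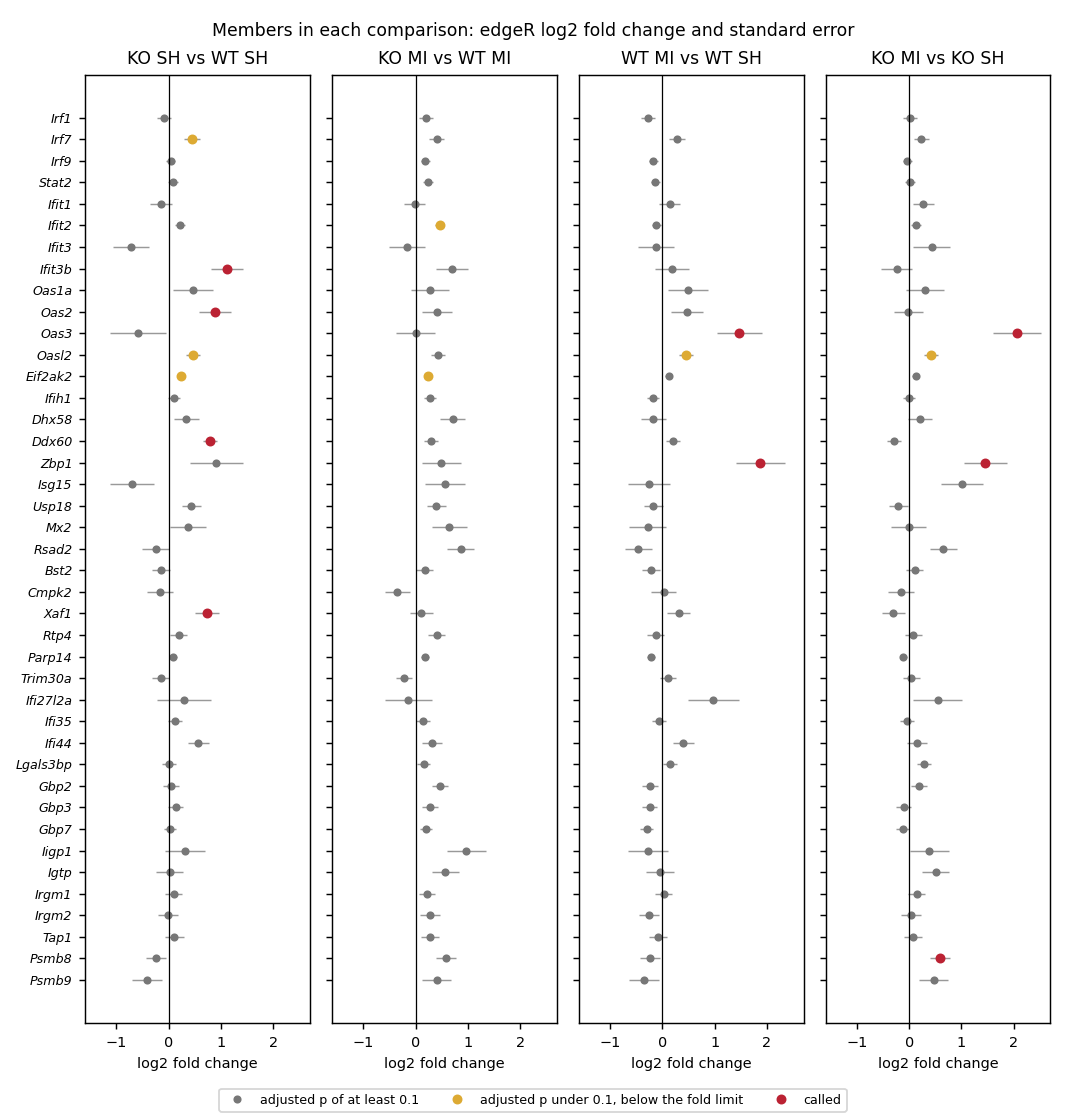
edgeR log2 fold change (point) and standard error (line) of each member in the 4 comparisons; red marks called members, yellow an adjusted p under 0.1 below the fold limit, grey the rest. Red points are *Ifit3b*, *Oas2*, *Ddx60* and *Xaf1* in KO SH against WT SH, none in KO MI against WT MI, *Oas3* and *Zbp1* in WT MI against WT SH, and *Oas3*, *Zbp1* and *Psmb8* in KO MI against KO SH.

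The interaction compared the genotype difference post-MI with that post-sham. edgeR called 0 of 41 members, beside 0.0248% of all tested genes (0.0198% higher and 0.00496% lower), and DESeq2 called 0. At an unadjusted p under 0.05, 3 were higher and 1 lower, beside 7.56% and 6.06% of all genes, and 28 of 41 differences were above 0 (50.3% of all genes). Those higher were *Rsad2* (difference of log2 fold changes 1.11 ± 0.365, edgeR adjusted p = 0.217), *Psmb8* (0.82 ± 0.272, 0.217) and *Isg15* (1.26 ± 0.565, 0.337), and the lower one was *Ddx60* (-0.50 ± 0.190, 0.267). For *Ddx60*, KO MI held 8.80, 5.16, 7.96 and 8 CPM and WT MI 5.09, 6.63, 6.14 and 6.54 CPM, where replicate 2 of KO MI lay in the WT MI range. That the call of *Ddx60* post-sham had no counterpart post-MI is therefore not shown to be a difference between the surgeries. Without KO MI replicate 7, *Rsad2* and *Psmb8* were called in the interaction (1.38 and 0.91, edgeR adjusted p = 0.00181 and 0.0678).

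Of the genes upstream of the members, the 12 interferon ligand genes summed to at most 0.109 CPM in any library and none could be tested. *Ifnb1*, which encodes interferon beta, had counts in 1 library only, KO SH replicate 3, at 0.0417 CPM, under the floor there. Of 13 receptor and JAK-STAT genes, 0 were called between genotypes, and *Socs3*, a feedback inhibitor, was called higher in KO MI against KO SH (log2 fold change 0.66 ± 0.173, edgeR adjusted p = 0.0203). Of 20 tested nucleic acid sensing genes, 2 were called lower in KO SH against WT SH, beside 2.53% of all tested genes. They were *Cgas*, the cytosolic DNA sensor, and *Tlr7*, the endosomal RNA sensor (-0.57 ± 0.157 and -0.50 ± 0.165). In KO MI against KO SH, 5 were called higher (*Cgas*, *Sting1*, *Ikbke*, *Irf5* and *Aim2*), beside 5.31% of all tested genes. In WT MI against WT SH, 2 were called higher (*Ikbke* and *Irf5*), beside 2.13% of all tested genes.

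A further 60 interferon-induced genes outside the 41, of which 56 were tested, were read from the same fit. They share the same libraries, so counts of them are not of independent genes. In KO MI against WT MI, 3 of 56 were called, all higher, and 49 of 56 were above 0 (median log2 fold change 0.18), beside 0.570% of all tested genes called higher and 52.1% above 0. These were *Ube2l6*, the conjugating enzyme of ISG15 (0.93 ± 0.170, edgeR adjusted p = 0.00687), *Trim12c* (0.58 ± 0.123, 0.0180) and *Isg20*, an exonuclease (1.20 ± 0.300, 0.0483). *Ube2l6* was at 10.1, 14.2, 10.8 and 6.80 CPM in KO MI, all above 4.39 to 6.64 CPM in WT MI, and *Isg20* was at 2.18, 4.04, 2.43 and 0.883 CPM against 0.945 to 1.28 CPM, so that replicate 7 was again the lowest, as for *Rsad2*. In KO MI against KO SH, 10 of 56 were called higher and 0 lower (edgeR), beside 5.31% and 2.11% of all tested genes, led by the DNA sensor gene *Ifi204* (1.54 ± 0.221), *Slfn9* (0.69 ± 0.0965) and *Ifi211* (1.74 ± 0.264). Next by adjusted p were *Ube2l6*, *Slfn2*, *Epsti1*, *Ifi209* and *Cxcl10*. *Ifi204* and *Ifi211* were also called in WT MI against WT SH (1.06 ± 0.219 and 0.98 ± 0.256), and 0 of 56 were called in KO SH against WT SH, where 5 (8.93%) were higher and 6 (10.7%) lower at an unadjusted p under 0.05, near the 10.5% and 12.3% of all genes.

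The remaining marker lists were read beside the members. Of all tested genes, 0.570% were called higher in KO MI against WT MI and 2.48% in KO SH against WT SH. The share called higher was 2.13% in WT MI against WT SH. In KO MI against KO SH, 5.31% were called higher and 2.11% lower. Lymphocyte markers had 0 of 9 tested genes called between genotypes and summed to 9.94 to 12.1 CPM in the sham libraries and 14.7 to 29.5 CPM in the MI libraries, with 1 called higher in WT MI against WT SH and 3 in KO MI against KO SH. Of 5 tested thymocyte markers, 1 was called higher in each of KO MI against WT MI and KO SH against WT SH and 1 lower in KO MI against KO SH. In the list for plasmacytoid dendritic cells, the main source of interferon alpha in blood, 1 of 4 tested genes was called, lower in KO MI against KO SH. The defining gene of these cells, *Siglech*, was at no more than 0.108 CPM, while the list summed to 234.5 to 352 CPM. Neither the sum nor the call is therefore read as a measure of these cells. Of 8 endothelial markers edgeR called 0 in any comparison, and of 10 cardiomyocyte markers 1 was called lower in KO MI against KO SH. Their part in the values of the members was not tested.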

How the data were processed

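RNA was sequenced from 16 bulk ventricle samples as stranded total RNA. The authors deposited estimated counts per Ensembl gene (expected counts, which need not be whole) in 1 table with a column per sample, and the deposited counts were rounded to whole numbers before fitting. The submitters' processing notes name GRCm39, bcl2fastq 2.17, cutadapt 3.4, FastQC, HISAT2 2.2.1, RSEM 1.1.17 and DESeq2, while the study's methods name other trimming and alignment tools, so the aligner is uncertain. All 16 columns were matched to samples by title. Genes were named with GENCODE on GRCm39, and 4140 identifiers had no name there.

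Genes with 10 or more counts, summed over libraries, in every group were tested (20159 of 51912). edgeR 4.0.16 (R 4.3.3, limma 3.58.1) fitted 1 coefficient per group over all 16 libraries with TMM scaling and the quasi-likelihood test. P-values were adjusted by the Benjamini-Hochberg method over all tested genes. Genes were called at an adjusted p under 0.1 with a log2 fold change of 0.5 or more in either direction. Standard errors were worked back from the test, as the absolute log2 fold change divided by the square root of its F statistic. Exact two-sided permutation tests used log2(CPM + 0.05). Count ratios carry exact 95% intervals that cover counting error only. DESeq2 1.42.0, other filters and scalings, a term for *Xist*, a replicate block and leaving out each library were the alternatives. The method was tested on simulated counts with known changes. Per the study's methods hearts came from males and females in equal numbers, and its figure legend gives n = 4 per group. Neither these nor the labels state that each library is 1 animal. KO SH, WT MI and KO MI each held 2 libraries with *Xist* above 100 CPM and others under it, so each of these groups holds more than 1 animal. WT SH held 0 such libraries. P-values measure the spread between these libraries, and how much of it is technical cannot be told. Depth was 33783874 to 57470159 counts per library.

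The 41 members and the other gene lists were chosen with earlier results of these data known. Values of single libraries are given for each called member and for *Irf7*, *Irf9*, *Stat2*, *Isg15*, *Ifit1* and *Usp18*. Of the other pathway lists, called genes (at most 8 per list and comparison by adjusted p) and *Ifnb1* are named, with other genes singled out after their values were seen. A gene that this rule also names is not reported here.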

Additional observations from a re-analysis of the deposited data

Results flagged for a closer look

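In 10 of 104 groups of 4 libraries examined, 1 library lay far from the other 3 (Dixon's gap over the range of the group, 95% limit). Chance would give about 5.2 if the groups were independent and chosen beforehand. They share libraries, and several of the genes were singled out after their values were seen. The 10 are therefore not shown to be more than chance. Among the GTPases, KO MI replicate 1 held *Iigp1* at 34.99 CPM (others 7.21 to 10.2) and *Irgm1* at 13.15 CPM (others 8.43 to 9.17). WT SH replicate 4 held *Gbp2* at 8.54 CPM (others 7.09 to 7.15) and *Gbp7* at 23.2 CPM (others 17.3 to 17.99). WT SH replicate 2 held *Igtp* at 2.46 CPM (others 3.31 to 3.38), and KO SH replicate 3 held *Irgm2* at 5.8 CPM (others 7.13 to 7.4). Outside the GTPases, *Zbp1* in KO MI replicate 1 was at 0.834 CPM (others 0.394 to 0.455), and its call in KO MI against KO SH held without that library. *Xaf1* in WT SH replicate 2 was at 5.43 CPM (others 9.27 to 9.67), and its call in KO SH against WT SH was lost without it. *Ifit2* in WT MI replicate 1 was at 19.3 CPM (others 22.83 to 23.01), and *Eif2ak2* in KO MI replicate 7 was at 53.03 CPM (others 60.62 to 60.99).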

How the results depend on the processing

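Counts of called members kept their direction under all alternatives, and 0 members were called lower in any of them. In KO MI against WT MI the 0 calls became 1 under DESeq2 and without a count filter, 2 with a term for *Xist*, 2 with no minimum fold change, 3 with the replicate block, and 6 from KO MI replicates 1 and 3 alone. Leaving out 1 library gave 0 to 3, with 3 (*Rsad2*, *Gbp2* and *Psmb8*) without KO MI replicate 7. In KO SH against WT SH the 4 calls became 2 at an adjusted p under 0.05 and 7 with no minimum fold change, and 1 to 5 on leaving out a library, with 1 (*Ddx60*) without KO SH replicate 4 and 2 without WT SH replicate 2. *Ifi44* joined the 4 under DESeq2, with edgeR's own count filter, with only the 2 groups fitted and with the replicate block. Without a filter it took the place of *Oas2*. In WT MI against WT SH the 2 calls became 1 under DESeq2, without a filter, with only the 2 groups fitted and at an adjusted p under 0.05, 0 with the *Xist* term, and 0 to 2 on leaving out a library, with 0 without WT MI replicate 2. In KO MI against KO SH the 3 calls became 6 from KO MI replicates 1 and 3 alone and 2 to 6 on leaving out a library, with 6 without KO MI replicate 7. In the interaction the 0 calls became 2 with the replicate block, 3 from KO MI replicates 1 and 3 alone, and 0 to 2 on leaving out a library, with 2 without KO MI replicate 7. The causes were not tested. The share of all tested genes called under each alternative is not given here, so these counts have no background beside them.

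The labels give no shared litter, batch or day for a replicate number, and not every pair correlated above 0.1, so the samples were not treated as paired. Correlations of same-numbered deviations were 0.024 to 0.231 in KO MI against WT MI and 0.062 to 0.212 in KO MI against KO SH, where 3 of 3 numbers correlated best with themselves, a hint from the data and not the design, and between -0.061 and 0.063 in the others, where 0 of 4 did. KO MI replicate 7 has no partner, so the block removes it from those comparisons. *Oas3* in the sham libraries had 1 to 6 counts, at or near the floor of 3 counts.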
